A study of Mus musculus with 16 samples.

Results

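The cortex of 5xFAD-Dp16 mice was compared with the cortex of Dp16 mice, over all genes of the count table. These 2 genotypes make up 8 of the 16 RNA libraries of the series, with 4 animals in each, taken by the genotype in the sample labels, 1 library per animal. The other libraries came from wild-type C57BL/6J (WT) and 5xFAD cortex, also 4 each, and all animals were 5 months old. Both compared groups carry Dp16, a duplication that gives 3 copies of the segment of mouse chromosome 16 related to human chromosome 21. They differ in the 5xFAD transgenes, which include human amyloid precursor protein with familial Alzheimer mutations. The Thy1 promoter directs them to neurons, so amyloid-beta is overproduced by those cells. The question was what the amyloid transgenes do where the chromosome 16 segment, mouse App included, has 3 copies. The 4 5xFAD-Dp16 animals were males, and the Dp16 animals were 2 females (replicates 1 and 4) and 2 males (replicates 2 and 3). Because of this, sex entered the model as a term, and values from the males alone stand beside many of the lists below. With no 5xFAD-Dp16 female, the sex term was estimated in the other genotypes, and single-gene changes depend on it. The p-values measure the spread between these animals.

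Amyloid deposits in the cortex are met by microglia, the resident phagocytes of the brain. Around plaques these cells switch to a state called disease-associated microglia, in which homeostatic genes are lowered and genes for lipid handling, lysosomal digestion and phagocytosis are raised. Part of this switch needs the receptor Trem2 and its signalling partner Tyrobp, and the transcription factor PU.1 (gene Spi1) sets the identity of the lineage. Astrocytes near plaques become reactive and raise Gfap, their intermediate filament protein.

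Clec7a and Cst7, genes of this microglial state, led the comparison. Their promoter windows are shown with that of Trem2, so that the sequence ahead of each transcript can be read beside its values. Clec7a encodes Dectin-1, a lectin receptor of phagocytes, and lies on chromosome 6 (ENSMUSG00000079293.11, 129461591 to 129472779, minus strand, GRCm38). Cst7 encodes cystatin F, an inhibitor of lysosomal cysteine proteases, and lies on chromosome 2 (ENSMUSG00000068129.5, 150570415 to 150578944, plus strand). Trem2, the lipid-sensing receptor, lies on chromosome 17 (ENSMUSG00000023992.14, 48346401 to 48354147, plus strand). Each window holds the 250 bases before the RefSeq start on GRCm38.p6, 5′ to 3′ on the gene's strand. Capitals mark exact matches of GAGGAAG, a sequence that PU.1 can bind, or of its reverse complement. Shorter or variant forms of the PU.1 site were not searched, so a window without a match may still hold one.
Clec7a, chr6:129472780-129473029, minus strand: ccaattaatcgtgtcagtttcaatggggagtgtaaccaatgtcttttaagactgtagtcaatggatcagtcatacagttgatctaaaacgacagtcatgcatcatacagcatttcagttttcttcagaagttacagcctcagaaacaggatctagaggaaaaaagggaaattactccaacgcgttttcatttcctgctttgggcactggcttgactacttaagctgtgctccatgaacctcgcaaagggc
Cst7, chr2:150570165-150570414, plus strand: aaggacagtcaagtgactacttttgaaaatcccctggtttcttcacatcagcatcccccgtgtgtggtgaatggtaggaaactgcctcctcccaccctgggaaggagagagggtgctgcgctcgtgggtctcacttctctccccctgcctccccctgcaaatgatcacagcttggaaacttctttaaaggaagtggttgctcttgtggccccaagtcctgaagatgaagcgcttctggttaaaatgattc
Trem2, chr17:48346151-48346400, plus strand: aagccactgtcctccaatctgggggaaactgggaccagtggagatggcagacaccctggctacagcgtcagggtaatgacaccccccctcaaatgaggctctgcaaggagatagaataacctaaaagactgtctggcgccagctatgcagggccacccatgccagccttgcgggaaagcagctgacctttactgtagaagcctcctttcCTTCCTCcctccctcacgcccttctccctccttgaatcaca
The search covered both strands, and overlapping matches were allowed. GAGGAAG was matched once, on the minus strand of the Trem2 window, 41 to 35 bases before the start, and had no match in the Clec7a or Cst7 window. Of 27025 promoters of the same length, 10.4% held it. GAAANNGAA, the core of an interferon-stimulated response element, had no match in the 3 windows and was held by 7.16% of promoters. Of 6 genes looked up, 4 were in the promoter table; Thy1 and Tyrobp were the others.

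The 8 libraries held 14181035 to 20385010 counted reads, and 17019 of 55385 genes passed the filter on low counts. Xist and 4 Y-linked genes followed the labelled sex in every library. Xist, the RNA of the inactive X chromosome, was read at 38.7 and 32.6 CPM in the 2 Dp16 females and had 0 reads in the 6 males. CPM is a gene's count scaled to the size of its library (counts per unit of 1e6 reads, after TMM scaling). The 33 markers of excitatory neurons and cortical layers were all measured and summed to 4486 to 6674 CPM in Dp16 and 5134 to 6900 CPM in 5xFAD-Dp16. Markers of neighbouring tissue were present at lower sums: the 18 striatal genes reached 1868 to 2780 CPM in Dp16 and 1589 to 2447 CPM in 5xFAD-Dp16, and the 23 choroid plexus and ependymal genes 322 to 405 CPM in Dp16 and 287 to 1011 CPM in 5xFAD-Dp16. The last maximum rests on Ttr, the choroid plexus transport protein, at 7.41, 677, 17.9 and 3.14 CPM in 5xFAD-Dp16 against 5.18, 15.7, 103 and 3.12 in Dp16. The libraries differed in how expression followed transcript length. Across genes, gene length and the departure of a library from the 16-library average had a Spearman's rho of 0.451, 0.102, 0.357 and 0.204 in 5xFAD-Dp16 and -0.041, -0.142, 0.263 and -0.308 in Dp16. The fitted log2 changes had a rho of 0.458 with length, 0.238 in the males alone and 0.017 once a length trend was removed from each library. For several lists of long or short genes below, the value with that trend removed stands beside the fitted one.

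The transgenes were accompanied by few changes that stood clear of the spread between animals. Clec7a, Cst7 and Thy1 rose, which are 3 of 17019 genes (0.0176%), and no gene fell (0.0%), by edgeR's quasi-likelihood test at an adjusted p under 0.05. At an unadjusted p under 0.05, 454 genes (2.67%) were higher and 447 (2.63%) lower. The ranges of the 4 and 4 libraries did not overlap for 480 genes higher in 5xFAD-Dp16 (2.82%) and 444 lower (2.61%). DESeq2 on the same filtered genes called 12 higher (0.0705%) and 13 lower (0.0764%), and the ranges of 24 of these 25 did not overlap. The 25 were chosen on these same libraries, so the gap between their ranges is not separate evidence for the calls. In simulated counts of this design, with 16636 genes tested, edgeR called 14% of genes changed 1.5-fold, 42% at 2-fold, 85.1% at 4-fold and 83.7% at 8-fold, with 10 false calls. Those counts were drawn independently for each gene, without a sex effect or length trend. The shares therefore describe that setting and may differ in the real libraries. The counts at unadjusted p moved with single libraries: 1488 higher (8.54%) and 1305 lower (7.49%) without Dp16 replicate 3, and 245 (1.404%) and 239 (1.37%) without 5xFAD-Dp16 replicate 1. List counts given below without Dp16 replicate 3 are to be read against those larger shares. In the males alone 1.61% of genes were higher and 1.59% lower at unadjusted p, and with the length trend removed 2.19% and 2.23%. List counts from those fits are to be read against these shares. Over all tested genes the median log2 change was 0.013, with 51.6% above 0, and gene lists below are read against these shares.

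**Figure D1:**
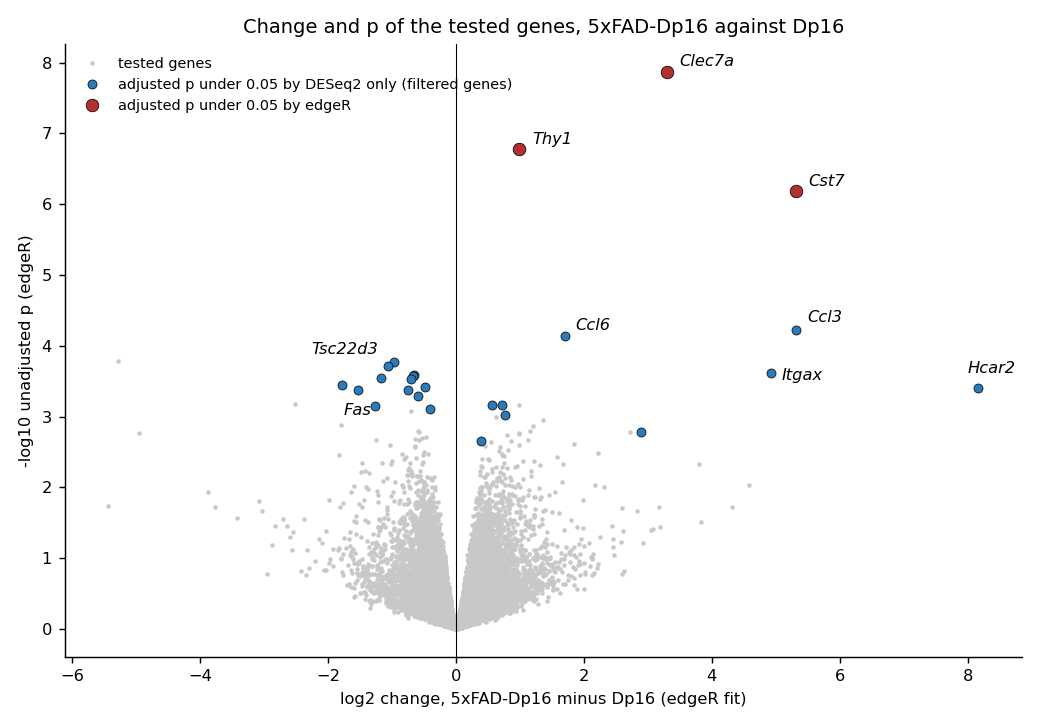
Fitted log2 change (x axis, 5xFAD-Dp16 minus Dp16) against -log10 of the unadjusted edgeR p (y axis) for the 17019 tested genes; red points passed edgeR's adjusted threshold and blue points DESeq2's alone. Clec7a, Cst7 and Thy1 stand above the rest on the right, and no red point lies on the left; the fitted position of Hcar2, with 0 reads in Dp16, depends on the prior count.

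Clec7a stood at 1.63, 1.65, 1.01 and 1.48 CPM in the Dp16 libraries and at 12.1, 12.3, 13.7 and 9.91 CPM in 5xFAD-Dp16. The ranges lie far apart, and the lowest carrier of the transgenes is several times above the highest Dp16 animal. The fitted rise was 3.30 on the log2 scale (SE 0.32, adjusted p = 0.00023), a fold of 9.82. Cst7 was read at 0.781, 0.285, 0.101 and 0.594 CPM in Dp16, 30 reads in all, and at 14.96, 15.1, 13 and 7.87 CPM in 5xFAD-Dp16, 978 reads. Its fitted rise was 5.31 (SE 0.69, adjusted p = 0.0037). The call for Cst7 was lost without Dp16 replicate 2, at an adjusted p of 0.0653, while the log2 change was then 5.26. Clec7a passed with each library left out, with adjusted p from 0.000693 to 0.00296. With the males alone both genes passed at an adjusted p of 0.0181.

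Thy1, the neuronal surface glycoprotein whose promoter drives the transgenes, checks the genotype labels. It stood at 836, 809, 907 and 902 CPM in Dp16 and at 1794, 1705, 1617 and 1472 CPM in 5xFAD-Dp16, so every library matched its label. The rise was 0.99 on the log2 scale (SE 0.12, adjusted p = 0.00143). Reads from the mouse gene and from Thy1 sequence carried by the transgenes cannot be told apart in counts per gene. App, the precursor gene itself, was read at 1537, 1628, 1889 and 1404 CPM in Dp16 and 2073, 1626, 1722 and 1572 in 5xFAD-Dp16. These ranges overlap, and the log2 difference of 0.12 (SE 0.19) was not past the threshold and turned to -0.14 with the length trend removed. How reads of the human transgenes were assigned is not given in the sources used here, so the levels of the human transcripts are not analysed here.

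The disease-associated microglia list, Clec7a and Cst7 among its members, leaned higher. Of its 37 tested genes 29 were above 0, with a median of 0.34, 0.30 with the length trend removed and 0.19 in the males alone. At unadjusted p, 12 were higher and 0 lower (8 to 11 higher with each library left out), against 2.67% and 2.63% of all genes. Ccl3, a chemokine that recruits phagocytes, was read at 0, 0.114, 0 and 0.0989 CPM in Dp16, 4 reads in all, and 0.956, 2.49, 1.72 and 1.76 in 5xFAD-Dp16. Ccl6, a chemokine of microglia and macrophages, stood at 3.76, 2.85, 3.75 and 4.25 CPM in Dp16 and 11.9, 13.5, 13.6 and 8.26 in 5xFAD-Dp16, a log2 difference of 1.70 (SE 0.33). Itgax, the integrin CD11c that marks plaque-associated microglia, had reads in 1 Dp16 library, 0, 0, 0.203 and 0 CPM, against 2.39, 1.16, 0.783 and 0.550 CPM. The ranges of these 3 genes did not overlap, and DESeq2 called each of them (adjusted p 0.00038, 0.000691 and 0.0197), while edgeR's adjusted p was 0.244, 0.244 and 0.380. The edgeR call for Itgax appeared at an adjusted p of 0.0204 without Dp16 replicate 3, the 1 control library with reads of it.

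The receptor pair of the pathway stood closer to the Dp16 level than these effectors. Trem2 stood at 25.5, 25.1, 27.2 and 32.9 CPM in Dp16 and 36.3, 43.0, 36.0 and 35.8 in 5xFAD-Dp16, with no overlap, a log2 difference of 0.54 (SE 0.18, unadjusted p = 0.00984, adjusted p = 0.758). Tyrobp, the adaptor that carries its signal, was read at 45.6, 37.2, 36.1 and 39.8 and at 48.1, 46.8, 50.5 and 50.6 CPM, a difference of 0.38 (SE 0.23). Apoe, a lipid carrier made by astrocytes and by activated microglia, differed by -0.12 (SE 0.15) with overlapping ranges. The summed level of the list, which holds abundant genes of other cells such as Apoe (2912 to 3741 CPM in Dp16), was 11180 to 13110 CPM in Dp16 and 10300 to 11380 CPM in 5xFAD-Dp16. Hcar2, a receptor for niacin and ketone bodies, had 0 reads in the 4 Dp16 libraries and stood at 0.765, 1.33, 0.836 and 0.826 CPM in 5xFAD-Dp16. Taking 3 counts in the pooled Dp16 reads as the limit (0.0419 CPM), the 5xFAD-Dp16 mean was at least 22.4-fold higher, and DESeq2 called it (adjusted p = 0.00187). Mpeg1, the pore-forming perforin-2 of macrophages, stood at 35.8, 35.2, 42.0 and 33.6 CPM and 68.5, 53.4, 76.1 and 57.1 CPM without overlap, a difference of 0.98 (SE 0.24, adjusted p = 0.505).

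**Figure D2:**
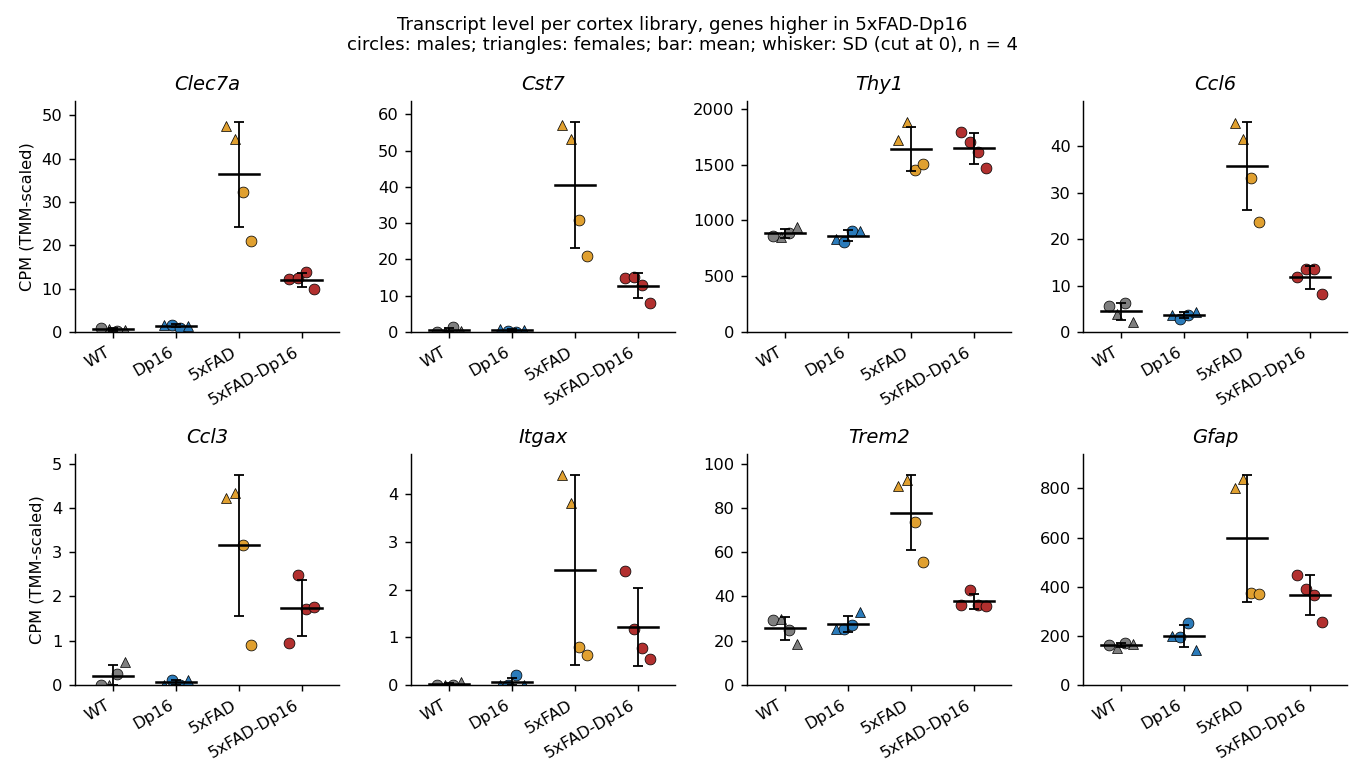
CPM (y axes, each from 0) in the 4 libraries of each genotype for 8 genes higher in 5xFAD-Dp16 than in Dp16; bars are means and whiskers SDs (n = 4, cut at 0). Clec7a lies at 1.01 to 1.65 CPM in Dp16 and 9.91 to 13.7 in 5xFAD-Dp16, and within 5xFAD the 2 females (triangles) stand above the 2 males (circles) in each of the 8 panels.

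Genes of the myeloid lineage in general were higher by a smaller amount. The general myeloid list had a median of 0.29 over 37 tested genes (0.30 with the length trend removed, 0.14 in the males alone), with 28 above 0. At unadjusted p 5 were higher and 0 lower, and 2 to 10 were higher with each library left out, most without Dp16 replicate 3. Ptpn6, the phosphatase SHP-1 that restrains myeloid signalling, stood at 4.97, 4.39, 3.54 and 6.28 CPM in Dp16 and 8.13, 8.20, 6.84 and 7.32 in 5xFAD-Dp16. Slc11a1, a metal transporter of phagosomes, was read at 1.92, 1.43, 1.32 and 2.33 and at 6.88, 1.496, 3.13 and 3.41 CPM, where 5xFAD-Dp16 replicate 1 stood above the other libraries. Ptprc, the leukocyte antigen CD45, differed by 0.67 (SE 0.24), and Spi1, which encodes PU.1, by 0.72 (SE 0.30). Irf8, a transcription factor that drives microglial activation, differed by 0.66 (SE 0.29). None of these 5 passed edgeR or DESeq2 after adjustment. Homeostatic microglial genes stayed close to the Dp16 level: the 22 genes had a median of 0.16, 0.006 in the males alone, and summed to 1516 to 1768 CPM in Dp16 and 1506 to 1765 CPM in 5xFAD-Dp16. P2ry12, the ADP receptor of resting microglia, stood at 55.7 to 67.3 CPM and 60.0 to 71.0 CPM, and Tmem119, a surface marker of resident microglia, at 19.6 to 32.6 and 15.6 to 22.8 CPM. Cx3cr1, the fractalkine receptor, stood at 41.8 to 61.5 and 47.5 to 66.3 CPM, and Sall1, a repressor that keeps microglial identity, differed by 0.57 (SE 0.30). The ranges of these 4 overlapped. At unadjusted p 0 of the 22 were higher and 1 was lower. That gene is Rhob, a small GTPase, which differed by -0.41 (SE 0.10) without overlap. DESeq2 called Rhob lower (adjusted p = 0.00327), and edgeR did not (adjusted p = 0.525). Of 24 markers of perivascular and blood-derived macrophages, 15 were tested, with a median of 0.10 (-0.33 in the males alone), and they summed to 16.5 to 46.7 CPM in Dp16 and 16.2 to 33.3 CPM in 5xFAD-Dp16. Of 26 lymphocyte markers 8 were tested, and Gzmb, Prf1, Klrb1c and Ms4a1 were among those with no read in the 8 libraries. In bulk tissue, more or fewer cells of a type and more or less RNA per cell cannot be told apart.

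The lists of secreted and digestive components share members with the disease-associated microglia list: Ccl3, Ccl4, Ccl6 and Csf1 among the chemokines and cytokines, Itgax in complement, and Cd68, Cd63, Ctsb, Ctsd, Ctsl and Ctsz in the lysosome. The 20 tested chemokines and cytokines had a median of 0.22 (0.09 in the males alone), with 4 higher and 2 lower at unadjusted p. Ccl4, a chemokine encoded beside Ccl3, stood at 0.142, 0.114, 0 and 0.247 and 1.00, 0.388, 0.418 and 0.991 CPM. Tgfb1, which maintains homeostatic microglia, differed by 0.76 (SE 0.25), and by 0.50 in the males alone. On the lower side, Il18, a cytokine matured by the inflammasome, was read at 38.5, 37.0, 32.6 and 32.7 CPM in Dp16 and 21.2, 28.5, 24.0 and 23.7 in 5xFAD-Dp16, with no overlap (-0.59, SE 0.21). Il33, an alarmin of astrocytes and oligodendrocytes, differed by -0.45 (SE 0.16). Complement had a median of 0.12 over 20 tested genes, 0.017 in the males alone, with 2 higher at unadjusted p. Itgb2, the beta chain shared with complement receptors, differed by 0.62 (SE 0.27), and C3ar1, the receptor for C3a, by 1.31 (SE 0.69). C1qa, a chain of the initiating complex of the classical pathway, stood at 117 to 156 CPM in Dp16 and 135 to 149.6 in 5xFAD-Dp16, and its partner chain C1qb at 92.3 to 117 and 96.0 to 114 CPM. C4b, whose reads can be shared with its near copy C4a, differed by 0.79 (SE 0.45). The 49 tested lysosomal genes had a median of 0.06 (0.002 in the males alone), with 29 above 0 and 2 higher at unadjusted p (1 to 8 with each library left out). Cd68, the glycoprotein of phagocyte lysosomes, stood at 13.2, 11.9, 13.5 and 13.8 CPM in Dp16 and 20.5, 17.7, 20.1 and 15.8 in 5xFAD-Dp16, without overlap (0.74, SE 0.29, 0.54 in the males alone). The cathepsins Ctsz, Ctss and Ctsd, lysosomal proteases, differed by 0.50 (SE 0.23, 0.24 in the males alone), 0.29 (SE 0.16) and 0.28 (SE 0.15). No gene of these 3 lists passed edgeR after adjustment.

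In astrocytes, Gfap stood apart from its list. Gfap was read at 199.6, 194, 253 and 143 CPM in Dp16 and 449, 391, 366 and 256 CPM in 5xFAD-Dp16, where the lowest 5xFAD-Dp16 library is just above the highest Dp16 library. The difference was 0.98 (SE 0.27, unadjusted p = 0.00176), short of the threshold after adjustment by edgeR (0.758) and by DESeq2 (0.155). Serpina3n, a protease inhibitor raised in reactive astrocytes, differed by 0.72 (SE 0.26, 0.50 in the males alone) with overlapping ranges. The reactive astrocyte list as a whole had a median of -0.08 (-0.11 to 0.16 with each library left out), with 14 of 31 above 0, 2 higher and 3 lower at unadjusted p. The 3 lower were Hspb1, a small heat shock protein, at 5.96, 6.16, 7.90 and 3.12 CPM in Dp16 and 4.30, 1.83, 1.88 and 1.82 in 5xFAD-Dp16, Tm4sf1, a membrane protein also found in endothelium (-0.52, SE 0.19), and Srgn, a proteoglycan of secretory granules (-0.46, SE 0.21). Homeostatic astrocyte genes had a median of -0.10 over 29 genes (-0.17 to 0.08 with each library left out). Gjb6, the gap junction protein connexin 30, differed by -0.53 (SE 0.16), and Ntsr2, a neurotensin receptor of astrocytes, by -0.33 (SE 0.15).

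Interferon signalling was of interest here because 4 of its receptor subunits lie in the triplicated segment. Ifnar1, Ifnar2, Ifngr2 and Il10rb, the subunits of the receptors for type I, type II and type III interferons, differed by 0.08 (SE 0.15), 0.20 (SE 0.17), -0.11 (SE 0.13) and -0.08 (SE 0.25). The ranges of all 4 overlapped between the groups, and the signs for Ifnar1 and Il10rb turned under some alternatives. The 51 tested interferon-stimulated genes outside the triplicated segment had a median of 0.12 (0.06 in the males alone), with 1 higher and 2 lower at unadjusted p, close to the shares of all genes. Dtx3l, a ubiquitin ligase encoded on chromosome 16 outside the segment, differed by 0.84 (SE 0.35). Slfn2, a Schlafen family protein of immune cells, differed by -0.55 (SE 0.23), and Xaf1, a pro-apoptotic factor, by -0.60 (SE 0.28). Irf7, the amplifier of the type I response, stood at 2.51 to 4.61 CPM in Dp16 and 3.60 to 4.38 in 5xFAD-Dp16. Mx2, an antiviral GTPase inside the triplicated segment, stood at 0.710, 0.856, 0.658 and 1.53 and 1.24, 0.831, 1.77 and 1.76 CPM, and Mx1 was too low to be tested, at 0.253 to 0.594 and 0 to 0.430 CPM. The 25 tested antigen presentation genes had a median of 0.06, -0.06 in the males alone, with 0 higher and 0 lower at unadjusted p.

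The glucocorticoid-responsive list, genes that corticosterone raises through its nuclear receptor, leaned below the Dp16 level. Of 23 tested genes 17 were below 0, with a median of -0.39 (-0.37 with the length trend removed, -0.53 in the males alone). At unadjusted p 9 were lower and 0 higher, 39.1% against 2.63% of all genes, and 5 to 10 were lower with each library left out, fewest without Dp16 replicate 3. Tsc22d3, the glucocorticoid-induced leucine zipper GILZ, stood at 162, 192, 194 and 139 CPM in Dp16 and 82.6, 106, 79.2 and 99.9 CPM in 5xFAD-Dp16. All 4 Dp16 libraries lay above the highest 5xFAD-Dp16 library, and DESeq2 called the gene lower (-0.97, adjusted p = 0.0143; edgeR 0.380). Sgk1, a serum- and glucocorticoid-regulated kinase, was read at 169.9, 193, 175 and 150.3 CPM and 82.4, 72.5, 66.2 and 97.7 CPM, without overlap (-1.03, SE 0.29). With the fit restricted to the 8 libraries, edgeR called these 2 genes lower, at adjusted p of 0.0407 and 0.0292. Sex stayed in that fit, so its contrast rests on the 4 5xFAD-Dp16 males and the 2 Dp16 males. In the males of all genotypes alone, the log2 changes were -1.07 and -1.21. Neither gene passed there (edgeR adjusted p = 0.482 and 0.9999). The WT libraries, at 95.3 to 180.5 CPM for Tsc22d3 and 57.4 to 160.8 CPM for Sgk1, overlapped both groups. In 5xFAD against WT the list had a median of -0.19, with 3 of 23 genes above 0. Arrdc2, an arrestin-domain protein, stood at 11, 8.50, 12.3 and 9.55 and 7.07, 5.37, 4.65 and 6.05 CPM, and Cdkn1a, the cell cycle inhibitor p21, at 26.0, 35.8, 32.0 and 22.7 and 21.4, 13.8, 13.2 and 16.7 CPM, both without overlap. Ddit4, an inhibitor of mTOR signalling, differed by -0.52 (SE 0.18), and the metallothioneins Mt1 and Mt2, metal-binding proteins, by -0.39 (SE 0.15) and -0.56 (SE 0.21). Fkbp5, a co-chaperone of the receptor and a classical target, did not share this: it stood at 14.3, 14.6, 23.1 and 10.6 and 16.9, 15.3, 14.7 and 13.2 CPM. Nr3c1, the receptor gene itself, stood at 72.3 to 80.2 CPM in Dp16 and 78.8 to 91.1 in 5xFAD-Dp16. The 22 circadian clock genes had a median of 0.09 (0.03 in the males alone), with 0 higher and 0 lower at unadjusted p.

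DESeq2's 13 lower calls included further genes outside that list. Fas, the death receptor, stood at 8.73, 7.70, 7.09 and 8.31 CPM in Dp16 and 2.82, 3.66, 2.98 and 1.98 CPM in 5xFAD-Dp16, and the WT libraries, at 2.00 to 5.29 CPM, lay below the Dp16 range. Cebpd, an acute-phase transcription factor, was read at 8.66, 12.9, 17.8 and 10.4 and 8.08, 5.43, 6.53 and 4.95 CPM, and Smim3, a small membrane protein, at 28.2, 32.1, 35.0 and 28.2 and 11.1, 16.3, 16.3 and 20.8 CPM. For Cebpd the WT libraries, at 6.26 to 12.3 CPM, overlapped both groups. For Smim3 they stood at 11.2 to 24.1 CPM, overlapping 5xFAD-Dp16 and below the Dp16 range, so that Dp16 was the group standing high. Plekhf1, an endosomal lipid-binding protein, stood at 19.7, 15.4, 12.7 and 17.1 and 6.50, 6.87, 3.81 and 7.98 CPM (log2 -1.27 by DESeq2). Adipor2, an adiponectin receptor, stood at 82.3, 93.2, 85.9 and 88.7 and 57.1, 66.6, 52.6 and 53.5 CPM, with WT at 55.7 to 72.8 CPM. Tnfaip6, a hyaluronan-binding protein, Sgms1, a sphingomyelin synthase, and N4bp3, a Nedd4-binding protein, differed by -0.71, -0.66 and -0.67 (DESeq2 adjusted p 0.0165, 0.0143 and 0.00723). Rhob, of the homeostatic microglia list, stood at 396 to 438 CPM in Dp16 and 310.4 to 337 in 5xFAD-Dp16. On the higher side DESeq2 also called Slitrk3, a synaptic adhesion protein, at 40.6, 40.5, 43.6 and 42.6 and 53.2, 53.4, 53.8 and 52.0 CPM, Cep85l, a centrosomal protein, at 9.67 to 14.8 and 18.9 to 20.4 CPM, and Meg3, a long noncoding RNA, at 154 to 223 and 225 to 264 CPM. With the length trend removed these 3 differed by 0.26, 0.44 and 0.23. By edgeR the lowest adjusted p among the genes of this paragraph was 0.380.

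**Figure D3:**
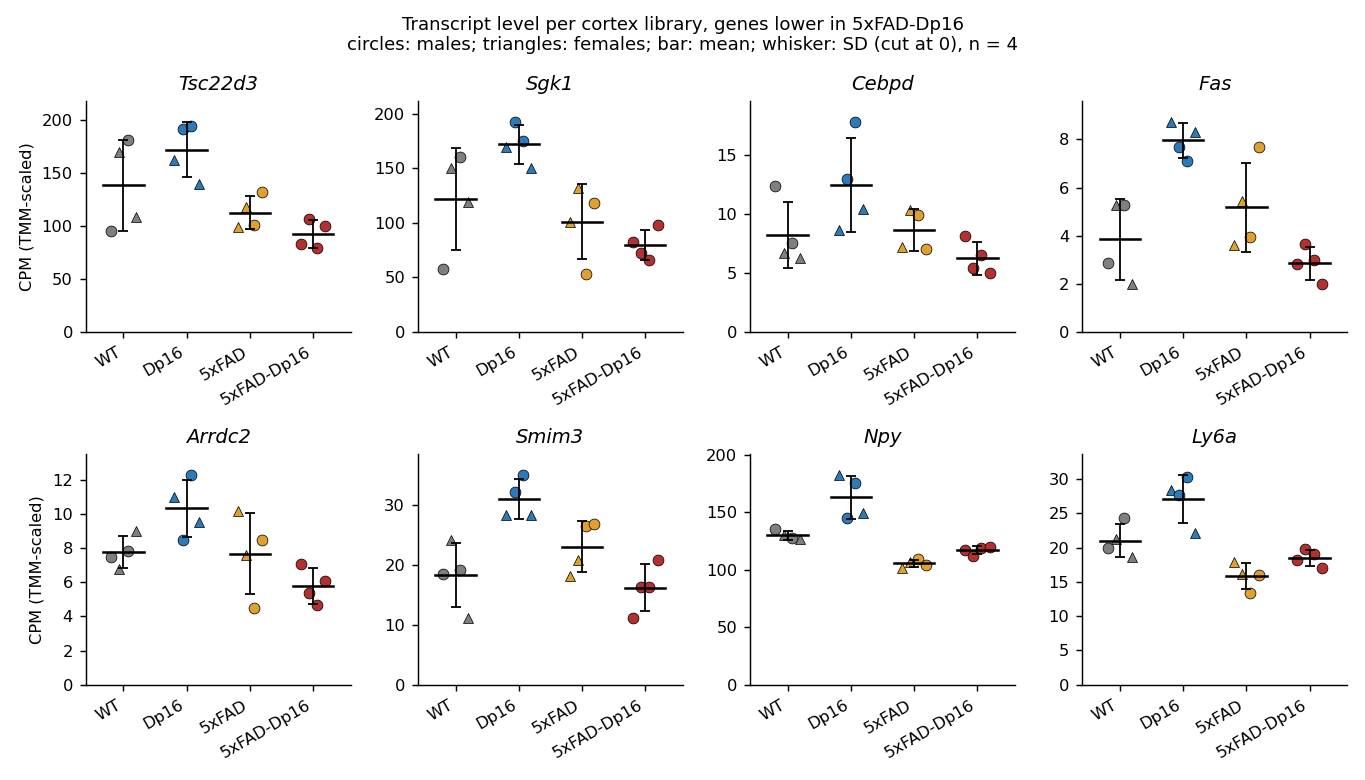
CPM (y axes, each from 0) in the 4 libraries of each genotype for 8 genes lower in 5xFAD-Dp16 than in Dp16; bars are means and whiskers SDs (n = 4, cut at 0). Dp16 holds the highest mean of the 4 genotypes in each panel, and its libraries lie above those of 5xFAD-Dp16 for all 8 genes.

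Vessel and blood transcripts also leaned lower in 5xFAD-Dp16. Of the 28 endothelial genes, 22 were below 0, with a median of -0.31 (-0.29 with the length trend removed, -0.38 in the males alone). At unadjusted p 6 were lower and 0 higher, and 2 to 7 were lower with each library left out, fewest without Dp16 replicate 3. Ly6a, the surface antigen Sca-1 of brain endothelium, stood at 28.5, 27.7, 30.3 and 22.2 CPM in Dp16 and 18.3, 19.8, 19.0 and 17.1 in 5xFAD-Dp16 without overlap (-0.57, SE 0.15, unadjusted p = 0.00166). Slc2a1, the glucose transporter of the blood-brain barrier, was read at 92.6, 80.8, 133 and 60.0 and 71.3, 50.2, 57.4 and 46.0 CPM, with overlap. Ocln, a tight junction protein, differed by -0.51 (SE 0.20), Itm2a, an endothelial membrane protein, by -0.48 (SE 0.20), Bsg, the carrier of lactate transporters, by -0.26 (SE 0.11), and Ly6c1, a relative of Ly6a, by -0.44 (SE 0.19). The endothelial sum was 1395 to 1663 CPM in Dp16 and 1136 to 1342 CPM in 5xFAD-Dp16. The 26 mural cell and fibroblast genes had a median of -0.08 (-0.22 in the males alone), with 0 at unadjusted p, and medians of -0.35 to 0.20 with each library left out, so its direction turned. The 4 tested haemoglobin genes, markers of red cells, had overlapping ranges. They differed by -0.80 (Hba-a1, SE 0.34), -0.86 (Hba-a2, SE 0.36), -0.76 (Hbb-bs, SE 0.43) and -0.71 (Hbb-bt, SE 0.41). The unadjusted edgeR p was 0.097 for Hbb-bs and 0.0986 for Hbb-bt. Reads can be shared within each near-identical pair. S100a8 and S100a9, proteins of neutrophils, stood at 1.49, 0.627, 11.3 and 2.97 and 0.710, 1.43, 7.19 and 3.36 CPM in Dp16 and at 0.143, 0.0554, 0.470 and 2.42 and 0.574, 0.665, 1.25 and 2.70 CPM in 5xFAD-Dp16. Dp16 replicate 3 was the highest library for both. The part of residual blood in the vessel values was not tested.

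Myelin genes were slightly lower. The 27 genes of myelinating oligodendrocytes had a median of -0.18, -0.14 with the length trend removed, and 23 of them were below 0. At unadjusted p 3 were lower, and 1 to 7 with each library left out, most without Dp16 replicate 3. Mal, a proteolipid of compact myelin, stood at 678, 816, 614 and 742 CPM in Dp16 and 425, 645, 428 and 499 in 5xFAD-Dp16. Mog, a glycoprotein of the outer sheath, differed by -0.37 (SE 0.14), and Mobp, a myelin-associated basic protein of oligodendrocytes, by -0.33 (SE 0.13). Oligodendrocyte precursors had a median of 0.19 that turned to -0.03 in the males alone and -0.02 with no sex term. The 21 genes described for oligodendrocytes near plaques had a median of -0.10 that turned to 0.02 with the length trend removed and was -0.02 in the males alone, with 1 higher and 3 lower at unadjusted p.

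Neuronal genes differed by class. The 33 genes of excitatory neurons and layers had a median of 0.30, with 26 above 0, and the 43 synaptic genes a median of 0.22, with 38 above 0. Both lists hold long transcripts, of 4518 and 5740 bases at the median, and their medians were 0.17 and 0.10 with the length trend removed and 0.09 and 0.07 in the males alone. At unadjusted p 4 and 2 of them were higher, and 2 and 1 in the males alone. With each library left out the counts ran from 2 to 13 and from 0 to 17, most without Dp16 replicate 3, the Dp16 library in which long genes stood highest. Deptor, an mTOR inhibitor of deep layers, stood at 10.01, 10.4, 10.6 and 9.003 CPM in Dp16 and 18.4, 12.96, 12.9 and 15.2 in 5xFAD-Dp16, without overlap. Tle4, a corepressor of layer 6 neurons, differed by 0.40 (SE 0.14), Rasgrf2, an exchange factor of upper layers, by 0.83 (SE 0.32), Gabrb2, a GABA receptor subunit, by 0.52 (SE 0.20), and Grin2a, an NMDA receptor subunit, by 0.65 (SE 0.30). Inhibitory neuron genes had a median of -0.01 over 34 genes (0.008 in the males alone), with 0 higher and 4 lower at unadjusted p. The 4 are the classical interneuron transcripts. Npy, neuropeptide Y, stood at 183, 145, 175 and 149 CPM in Dp16 and 117, 112, 119 and 120.1 CPM in 5xFAD-Dp16, without overlap, and was called by DESeq2 (adjusted p = 0.00439) and not by edgeR (0.3997). Sst, somatostatin, was read at 633, 584, 593 and 582 and 476, 518, 497 and 465 CPM, also without overlap. Vip, vasoactive intestinal peptide, differed by -0.46 (SE 0.21) and Pvalb, the calcium buffer of fast-spiking cells, by -0.61 (SE 0.28). These 4 transcripts are short, and with the length trend removed the differences were -0.17 for Npy, -0.06 for Sst, -0.29 for Vip and -0.36 for Pvalb.

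Immediate early genes, which neuronal firing raises within minutes, were mixed, with more above 0 than below. Of 39 tested genes 27 were above 0, with a median of 0.23 that turned to -0.03 in the males alone. The 12 below 0 included Atf3 (-0.99, SE 0.48), Maff (-0.81, SE 0.38), Klf4 (-0.72, SE 0.41) and Klf10 (-0.39, SE 0.18). At unadjusted p 8 were higher (20.5%, against 2.67% of all genes) and 2 lower. In the males alone 9 were higher and 3 lower, against 1.61% and 1.59% of all genes there. Fos, a subunit of AP-1, stood at 18.4, 20.9, 19.1 and 10.98 CPM in Dp16 and 44.8, 25.5, 31.6 and 29.0 in 5xFAD-Dp16, and Nr4a1, an orphan nuclear receptor, at 45.9, 58.7, 56.9 and 33.5 and 139, 64.9, 87.5 and 91.7 CPM. Both had no overlap, with replicate 1 the highest 5xFAD-Dp16 library. Egr2, a zinc finger factor, differed by 1.22 (SE 0.37), Npas4, which tunes inhibitory synapses, by 0.96 (SE 0.36), Btg2, an antiproliferative factor, by 0.88 (SE 0.30), and Dusp1, a MAP kinase phosphatase, by 0.50 (SE 0.15). No member passed either test after adjustment. The WT libraries stood at 19.0 to 34.8 CPM for Fos, overlapping both groups, and the 5xFAD libraries at 16.6 to 20.8 CPM.

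Short transcripts of energy production and translation stood lower together. The 51 ribosomal protein genes were all below 0, with a median of -0.40, and 44 of 46 nuclear genes of oxidative phosphorylation were below 0, with a median of -0.31. With the length trend removed these medians were -0.17 and -0.10, and in the males alone -0.21 and -0.15. Their median transcript lengths were 1052 and 1128 bases, and reads of ribosomal genes can be shared with processed pseudogenes. At unadjusted p 12 and 5 were lower, 6 and 2 with the length trend removed, and 1 and 3 in the males alone. With each library left out the counts ran from 2 to 45 and from 1 to 30, most without Dp16 replicate 3. Rpl38, a protein of the large ribosomal subunit, stood at 308, 276, 252 and 299 CPM in Dp16 and 187, 220.4, 213 and 216 in 5xFAD-Dp16, Rps19, of the small subunit, differed by -0.56 (SE 0.24), and Rps29 by -0.35 (SE 0.15). Cox6a1, of cytochrome oxidase, was read at 772, 672, 653 and 688 and 487, 558, 548 and 558 CPM, and Atp5l and Atp5e, of ATP synthase, differed by -0.66 (SE 0.27) and -0.59 (SE 0.26). The 13 protein-coding genes of the mitochondrial genome had a median of 0.10, 0.34 with the length trend removed and 0.01 in the males alone. Of these, mt-Nd6 differed by 0.46 (SE 0.16), and mt-Nd3 stood at 13.3, 139, 10.4 and 11.1 CPM in Dp16 and 7.17, 9.31, 8.98 and 8.86 in 5xFAD-Dp16, so that replicate 2 sets its Dp16 mean. Oxidative stress genes had a median of -0.23 over 30 genes, -0.12 with the length trend removed, with 5 lower at unadjusted p (1 to 10 with each library left out), and Nqo1, a quinone reductase, differed by -0.75 (SE 0.24). The unfolded protein response had a median of -0.10 over 28 genes. Herpud1, of protein degradation at the endoplasmic reticulum, differed by -0.38 (SE 0.12), Ddit3, the stress factor CHOP, by -0.41 (SE 0.15), and Manf, a secreted stress protein, by -0.46 (SE 0.18).

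**Figure D4:**
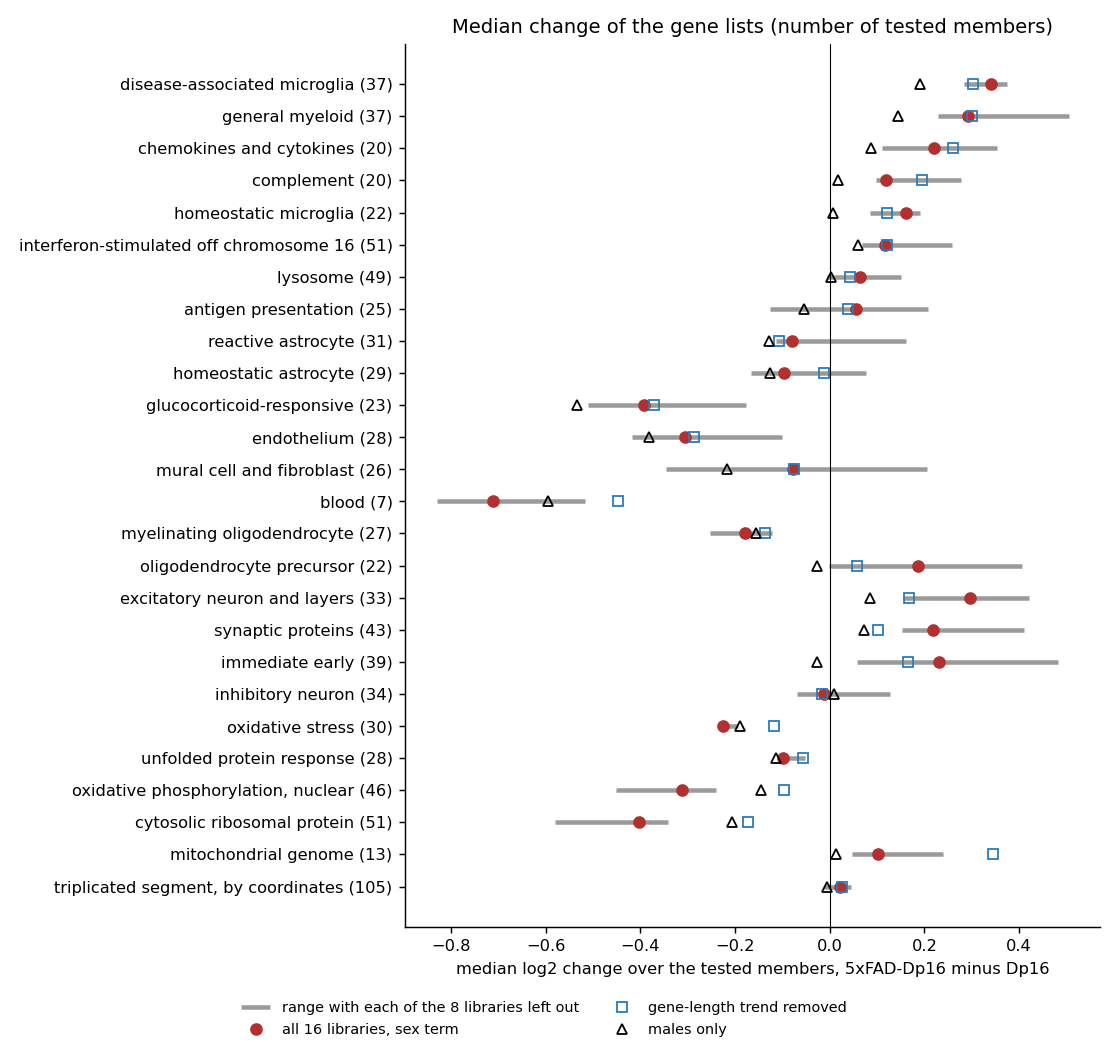
Median log2 change (x axis, 5xFAD-Dp16 minus Dp16) over the tested members of 26 gene lists (y axis, with the number tested), from all 16 libraries, with the gene-length trend removed and in the males alone; grey lines span the fits with each of the 8 libraries left out. The glucocorticoid-responsive, endothelial, blood, myelinating oligodendrocyte, oxidative stress, unfolded protein response, ribosomal and oxidative phosphorylation lists stay below 0 under each of these. All move toward 0 with the length trend removed, the ribosomal list from -0.40 to -0.17 and the glucocorticoid-responsive list from -0.39 to -0.37. The list labelled off chromosome 16 includes Dtx3l, which lies on that chromosome outside the triplicated segment.

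Genes of the triplicated segment, 3 copies in both groups, stood at the same level on average. The segment, chromosome 16 from 75540514 to 97962622 (GRCm38), holds 384 genes of the table, of which 105 were tested. Their median was 0.02, with 56 above 0, against -0.02 for the 416 tested genes on the rest of the chromosome. None passed after adjustment, and 3 were higher and 4 lower at unadjusted p (2 to 6 and 1 to 11 with each library left out). Of 36 tested segment genes listed by function, Grik1, a kainate receptor subunit, differed by 0.67 (SE 0.27), and Ncam2, a neural adhesion molecule, by 0.37 (SE 0.15), or 0.10 with the length trend removed. Samsn1, an adaptor of haematopoietic cells, differed by 0.63 (SE 0.31), and Synj1, a phosphatase of synaptic vesicle recycling, by 0.51 (SE 0.25), or 0.26 with that trend removed. Dyrk1a, a kinase that can phosphorylate tau, stood at 97.3, 103, 103 and 95.2 CPM in Dp16 and 124, 107, 118 and 114 in 5xFAD-Dp16, without overlap, and its difference of 0.20 (SE 0.12) was -0.01 with the length trend removed. Rcan1, the calcineurin inhibitor, differed by -0.08 (SE 0.11), and Sod1, a superoxide dismutase, by -0.28 (SE 0.15), or 0.03 with the length trend removed. Olig1 and Olig2, transcription factors of the oligodendrocyte lineage, differed by 0.02 (SE 0.23) and 0.43 (SE 0.27). Among 25 genes that process or clear the precursor protein, the median was 0.13 (-0.009 in the males alone), with 0 higher and 2 lower at unadjusted p. Those are Mme, the amyloid-degrading neprilysin, at 14.98, 21.2, 18.9 and 21.5 CPM in Dp16 and 7.74, 7.76, 15.9 and 17.1 in 5xFAD-Dp16, and Aph1b, a gamma-secretase subunit (-0.28, SE 0.12).

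The same transgenes were compared on 2 copies of the segment as 5xFAD against WT, which shares no library with 5xFAD-Dp16 against Dp16. Microglial genes stood higher there too, with larger values. Of 27 genes that rose in 5xFAD against WT, 23 were above 0 with 3 copies and 26 were smaller, and the medians were 1.34 with 2 copies and 0.39 with 3. Those 27 were chosen on the 2-copy contrast, so a smaller value in the other is partly fixed by the choice. Over the disease-associated microglia list the medians were 0.79 with 2 copies and 0.34 with 3, and 27 of 37 genes were smaller with 3 copies. For Clec7a the log2 change was 5.94 with 2 copies and 3.30 with 3, and 5xFAD libraries stood at 47.4, 44.5, 32.3 and 21.0 CPM. Trem2 stood at 89.9, 92.7, 73.7 and 55.5 CPM in 5xFAD, against 36.3, 43.0, 36.0 and 35.8 in 5xFAD-Dp16, and Tyrobp at 137, 148, 137 and 77.3 against 48.1, 46.8, 50.5 and 50.6. The 5xFAD replicates 1 and 2 were females and 3 and 4 males, while the 5xFAD-Dp16 animals were males, and the females were the highest 5xFAD libraries for these 3 genes, for Tyrobp by a narrow margin.

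The difference between the backgrounds, tested as an interaction, was not past the threshold for any gene (0 of 17019, 0.0%, by edgeR), with 1591 genes at an unadjusted p under 0.05. DESeq2 called 21 genes on the same filtered table. The smallest edgeR adjusted p was 0.203, for Cd86, a costimulatory receptor of activated microglia, which stood at 5.96, 9.30, 7.49 and 7.47 CPM in Dp16, 6.55, 7.59, 6.27 and 7.93 in 5xFAD-Dp16, 5.00, 3.39, 3.57 and 4.36 in WT and 12.4, 13.6, 11.2 and 11.97 in 5xFAD. Its interaction was -1.73 on the log2 scale (SE 0.28), and -1.66 in the males alone. Clec7a followed, at -2.65 (SE 0.47, adjusted p = 0.235), and -2.33 in the males alone (adjusted p = 0.405). For Trem2 the interaction was -1.05 (SE 0.25, adjusted p = 0.521), and -0.71 in the males alone, and for Tyrobp -1.24 (SE 0.32) and -0.88. Cst7 differed by -1.09 (SE 1.01) and, in the males alone, by 0.77, so its sign turned. Immediate early genes leaned opposite ways, with a median of -0.46 with 2 copies and 0.23 with 3 (-0.03 in the males alone), and Fos had an interaction of 1.45 (SE 0.33, adjusted p = 0.521). Medians of opposite sign were also seen in the excitatory neuron (-0.19 with 2 copies, 0.30 with 3), synaptic (-0.19, 0.22), ribosomal (0.18, -0.40) and oxidative phosphorylation lists (0.10, -0.31). With the length trend removed their 3-copy medians were 0.17, 0.10, -0.17 and -0.10. The rho with gene length was -0.277, -0.36, -0.128 and 0.435 in WT and 0.227, 0.079, -0.462 and -0.239 in 5xFAD. Its part in the 2-copy medians was not tested. Other lists were below 0 in both, such as the endothelial (-0.51, -0.31), glucocorticoid-responsive (-0.19, -0.39) and myelinating oligodendrocyte lists (-0.285, -0.18). Fas had an interaction of -1.97 (SE 0.47) and Smim3 of -1.39 (SE 0.30). The WT libraries stood apart in genes detected, 18331 to 19242 in 3 of 4 against at least 20360 in the other genotypes, and its part in these differences was not tested.

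**Figure D5:**
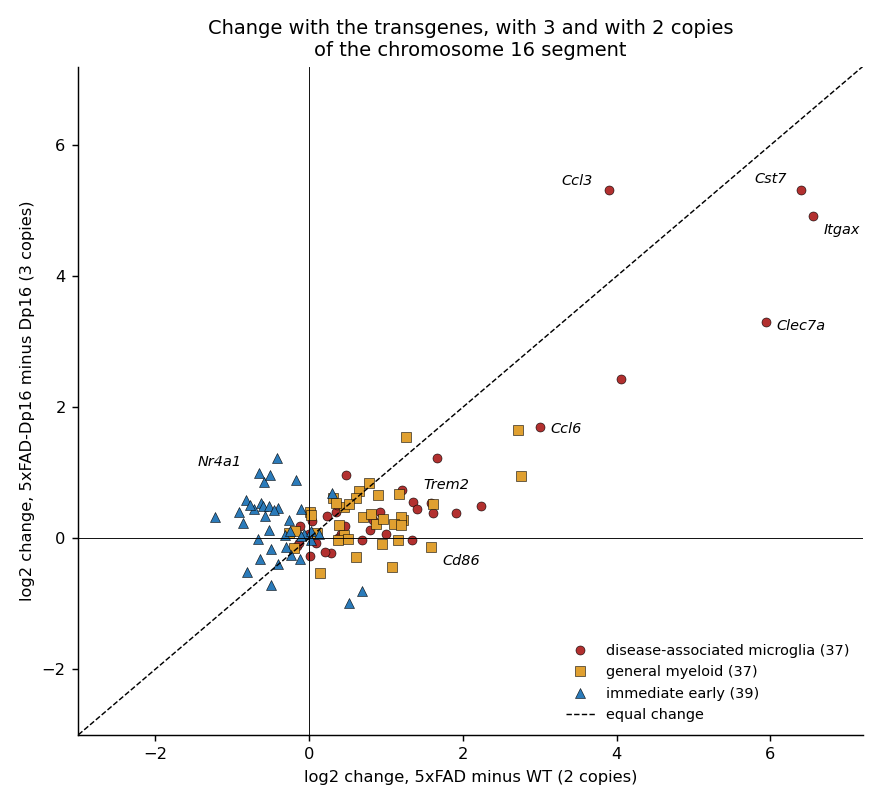
Log2 change of 5xFAD against WT (x axis, 2 copies) and of 5xFAD-Dp16 against Dp16 (y axis, 3 copies) for tested genes of 3 lists; the dashed line marks equal change. Of 37 disease-associated microglia genes 27 lie below the line, as do 25 of 37 general myeloid genes and 7 of 39 immediate early genes.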

How the data were processed

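Cortical polyA RNA of 16 mice was sequenced as strand-specific paired-end libraries, per the labels. The deposited gene table holds raw counts from HTSeq 0.6.1 after HISAT2 2.1.0 alignment to GRCm38, with SAMtools 1.5 and FastQC 0.11.5, per the submitters' processing notes; the strand setting is not given in the sources used here. RPKM values that the authors deposited matched count and length for 100.0% of values within 0.1% and served only for gene length. Coordinates came from Gencode M21, which held 55144 of the 55385 genes. Promoter windows came from RefSeq.

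edgeR 4.0.16 (R 4.3.3) fitted the counts of all 16 libraries, so that the genotypes shared 1 estimate of spread, with TMM scaling, its filter on low counts, genotype means and sex, the robust quasi-likelihood test and Benjamini-Hochberg adjustment at 0.05. The common biological coefficient of variation was 0.266 with 11 residual degrees of freedom. Counted reads per library ran from 12483286 to 20385010, which limits genes under about 1 CPM. DESeq2 1.42.0 gave an alternative test. The other alternatives were edgeR fits: DESeq2 size factors, no filter, no sex term, males only, only the 8 libraries, a length trend removed, a replicate block and each library left out. DESeq2 on filtered genes and a fit without the 2 libraries of lowest correlation (WT replicate 2 and 5xFAD replicate 3) were added after seeing the data. The edgeR test was checked on simulated counts without a sex effect or length trend.

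Genes are named where they check the labels, passed the threshold with ranges apart, had the smallest adjusted p of their list (up to 6), or lie in the triplicated segment and were listed by function. Further genes, among them Hcar2, Mpeg1, Tyrobp, Apoe, Cd86, Fas, Cebpd, Smim3, Fkbp5, Nr3c1 and DESeq2's calls, were chosen after their values were seen. The groups and gene lists were chosen with earlier results of these data known. Some genes of the table are not reported here.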

Additional observations from a re-analysis of the deposited data

Results flagged for a closer look

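In 16 of 338 groups of 4 libraries, 1 library lay apart from the other 3 by Dixon's test on log2 values; chance gives this in about 5% of groups, close to the share found. In Dp16, replicate 3 was the highest library for Itgax, at 0.2025 CPM against 0 in the others. Dp16 replicate 2 was the lowest for Irf8, at 5.418 CPM against 7.746 to 8.163, and the highest for mt-Nd3, at 139.3 CPM against 10.38 to 13.34. Dp16 replicate 4 was the lowest for Hba-a1, at 15.88 CPM against 28.25 to 30.

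In 5xFAD-Dp16, replicate 2 stood highest for Trem2 at 42.99 CPM (others 35.84 to 36.28), Hcar2 at 1.33 CPM (0.7648 to 0.8355), C1qa at 149.6 CPM (135.0 to 136.2) and Mobp at 338.1 CPM (275.6 to 277.4), and lowest for Nr3c1 at 78.77 CPM (89.2 to 91.12). Replicate 1 stood highest for Hspb1 at 4.302 CPM (1.817 to 1.88) and lowest for Cox6a1 at 487.1 CPM (547.9 to 558.5) and Rps19 at 238.5 CPM (290.9 to 294.3).

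For gene lists, the score is the mean log2 CPM of the tested members in a library, less the average of that mean over the Dp16 libraries. Dp16 replicate 3 was highest for antigen presentation at 0.386 (others -0.158 to -0.081), excitatory neuron genes at 0.251 (-0.117 to -0.063) and circadian clock genes at 0.259 (-0.124 to -0.061). Dp16 replicate 4 was lowest for oxidative stress genes at -0.054 (0.014 to 0.023).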

How the results depend on the processing

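DESeq2 size factors, the length trend removed, the males alone and no sex term each gave 3 higher and 0 lower genes, the same 3. DESeq2 called 11 higher and 14 lower with its own filtering and 12 and 13 on filtered genes, and no filter gave 24 and 21. Restriction to the 8 libraries gave 2 lower genes, and leaving out the 2 libraries of lowest correlation gave 1 (Smim3). With each library left out, 2 to 4 genes were higher and 0 lower. The difference between backgrounds was called for 28 genes by DESeq2, 21 by DESeq2 on filtered genes, 346 with no filter and 0 under the other settings. Why the tools and filters differ was not tested.

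The replicate block gave 2 higher and 0 lower genes, since Cst7 (5.34) then had an adjusted p of 0.0564. Deviations of same-numbered libraries correlated at 0.119, 0.082, 0.021 and 0.187, and not every library correlated best with its own number, so the numbers were not taken to pair animals.

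Of the named genes' log2 changes, 2179 kept direction and side of the threshold, 58 passed it, 2 lost it and 28 changed sign. The sign changes, whose cause was not tested, were of small values except for Ttr. With the length trend removed App was -0.144, Dyrk1a -0.013, Fkbp5 -0.14, Il10rb 0.026 and Sod1 0.025. In the males alone App was -0.014, Fkbp5 -0.332, Ifnar1 -0.01 and Olig1 -0.147, and in the 8 libraries alone App was -0.015, Fkbp5 -0.333, Ifnar1 -0.011 and Olig1 -0.148. With no sex term Fkbp5 was -0.059, Ifnar1 -0.007, Il10rb 0.002 and Olig1 -0.135, and without the low-correlation libraries Fkbp5 was -0.028. With single libraries left out, Fkbp5 ranged from -0.103 to 0.444, Il10rb from -0.258 to 0.074, Olig1 from -0.127 to 0.165, Cd86 from -0.200 to 0.008, Tmem119 from -0.389 to 0.006 and Ttr from -1.979 (without 5xFAD-Dp16 replicate 2) to 3.955.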

Other observations

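Tau and its kinases had a median log2 change of 0.17 over 23 genes, with 20 above 0 and 1 higher at unadjusted p, and medians of 0.08 with the length trend removed and 0.03 in the males alone. Cholesterol synthesis and transport had a median of 0.04 over 36 genes, with 1 higher and 1 lower. Heat shock genes had a median of -0.07 over 24 genes, with 2 lower. Hippocampal and thalamic markers had a median of 0.21 over 18 tested genes, -0.01 in the males alone, and summed to 164 to 272 CPM in Dp16 and 206 to 256 CPM in 5xFAD-Dp16.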
